A study of Homo sapiens with 8 samples.

Results

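The change of total RNA that follows transfection of miR-634 was measured in A431 cells, a human cutaneous squamous cell carcinoma (cSCC) line that carries an amplified EGFR gene. The 2 miR-634 input arrays were compared with the 2 miR-NC input arrays, over the probes that the scanner software called well above background on all 4 of them. Of 58201 probes other than controls, 23573 passed this rule, and they stood for 13662 of the 22439 gene symbols on the array.

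Per the study's methods, the cells received 10 nM of miR-634, or of miR-NC, its negative control miRNA, and were lysed 24 h later. Total RNA of the lysate (the input) and RNA bound by AGO2 (the RIP) were hybridized in 2 arrays each, so that 4 of the 8 arrays of the series are input arrays. No untransfected cells were among the arrays, and both groups carried a transfected RNA. The arrays are treated here as input because the titles, the molecule field and the methods call them so, although a further label gives them a normal rabbit IgG antibody, and no source states that the 2 arrays of a group came from separate transfections, so the p-values measure only the spread between arrays, which may be technical.

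MicroRNAs guide AGO2 and its partner proteins, together called RISC, to messenger RNAs that pair with the miRNA's seed, the bases near its 5′ end. RISC then lowers translation of the bound RNA and recruits enzymes that shorten its poly(A) tail and degrade it. A transfected miRNA therefore acts on many transcripts at the same time, and further genes change downstream of its direct targets, so that a lower input level does not by itself mark a target.

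The mature miR-634 sequence is shown because every change below follows its transfection; the capitals mark the seed, bases 2 to 8. It is compared with let-7a-5p, a miRNA with a different seed whose known target genes form a list below.
hsa-miR-634: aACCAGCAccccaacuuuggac
hsa-let-7a-5p: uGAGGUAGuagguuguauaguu
Both come from RefSeq. In GRCh38.p14, the 22 bases of miR-634 lie at chr17:66787132-66787153 on the plus strand. No other mature human miRNA among the 2370 in the RefSeq table had the seed ACCAGCA, whose complementary site in a transcript reads UGCUGGU. Transcripts were not searched for this site.

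All 10 markers of squamous epithelial cells were well above background on all 4 input arrays, among them KRT5, KRT14, TP63 and EGFR. Of the markers of other cells, 1 of 6 for fibroblasts (LUM), 2 of 4 for endothelial cells (CDH5 and VWF), 2 of 4 for melanocytes (PMEL and DCT) and 0 of the 3 leukocyte markers with a matched probe were so on all 4 arrays. The leukocyte marker PTPRC and the fibroblast marker PDGFRB were so on 3 of the 4. The 5 markers of other cells that were so on all 4 arrays had mean scaled intensities between 52.7 and 107. KRT5 had 26600, but TP63, the dimmest squamous marker, had 158. None of the 5 passed the test between groups.

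The input arrays were much alike, since 45.6% to 45.8% of their spots were well above background and the SD between the arrays of a group was 0.042 (miR-NC) and 0.049 (miR-634) on the log2 scale for the median gene. The miR-NC arrays disagreed in 1 place. Of 130 probes that were more than 2-fold brighter on miR-NC input 1 than on miR-NC input 2, 104 lay in 1 area at the edge of the array, within its first 40 of 164 columns, that held 10.4% of the passing probes. In the other direction there were 43 such probes, and 25 of them (58.1%) also lay in this area, so the miR-NC arrays differed there both ways. Between the miR-634 arrays there were 16 and 24 such probes, and 0 of these lay there. Results were therefore also computed without the probes of this area, called the discordant area below, and genes given with their intensities are marked below where their probe lies in it. Of the other genes named, FAS, NQO1, FTL, ISG15, CDCA8, ITGAV, ITGB1, EIF4G1, EIF5B, ZFP36, ZFP36L2 and DNAJB4 also had their probe there. All 4 arrays were on 1 slide, where the miR-NC arrays filled one side of a row and the miR-634 arrays the other, so position on the slide and miRNA cannot be told apart. Every change is relative to the 75th percentile of the array. Scaled on 7 spike-in probes instead, the median gene was 0.23 lower on the log2 scale in miR-634 cells, so "higher" and "lower" below mean relative to the bulk of the genes.

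Total RNA levels shifted by small amounts in many genes, and larger changes were mostly falls. By limma with Benjamini-Hochberg adjustment, 1386 of 13662 genes (10.1%) had an adjusted p under 0.05 and were higher after miR-634, and 1427 (10.4%) were lower. Only 11 genes (0.0805%) rose by more than 2-fold, whereas 48 genes (0.351%) fell by more than 2-fold. Without regard to the test, 49.1% of the genes had a log2 change above 0 and 50.9% one below 0. The groups of arrays did not overlap for 33.8% of all genes in the higher direction and for 34.2% in the lower direction, so a lack of overlap alone was common. Without the discordant area, there were 1633 higher and 1293 lower genes of 12499, with 9 and 36 of them over 2-fold. The counts rest on the spread of all 4 arrays: with any 1 array left out, limma called 0 genes higher and between 0 and 9 genes lower, while 1992 to 2178 higher and 1903 to 2265 lower genes had an unadjusted p under 0.05. The 9 lower genes were called without miR-NC input 2, and 0 were called without each of the other arrays.

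**Figure D1:**
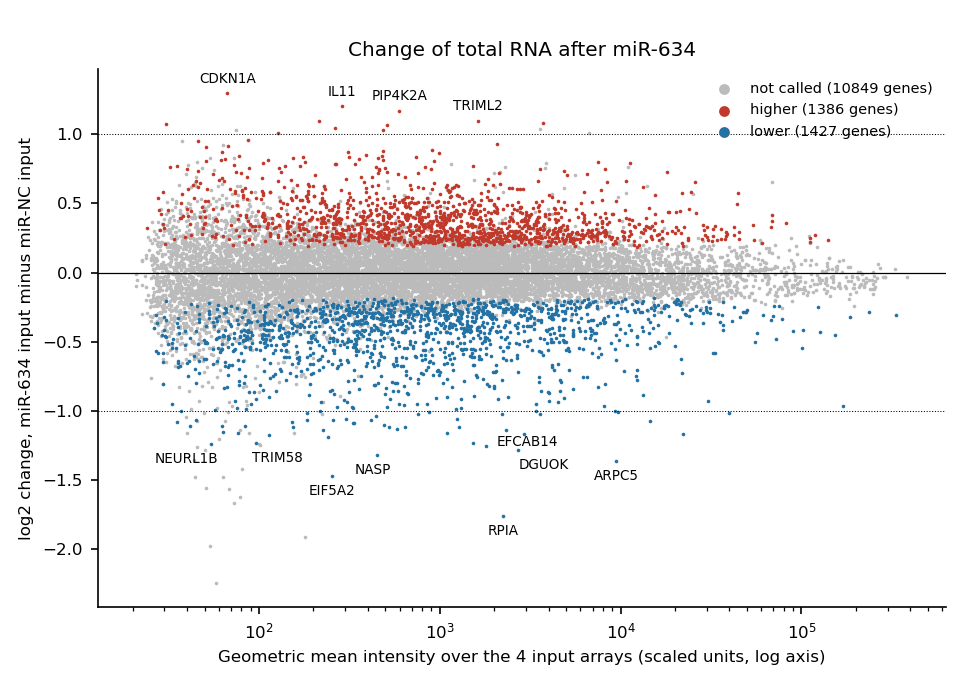
Each point is 1 of 13662 genes, with its geometric mean intensity over the 4 input arrays on the horizontal log axis and its log2 change on the vertical axis. The 1386 genes called higher and the 1427 called lower lie at all intensities, and more named genes lie below -1 than above 1 (dotted lines). Grey points below -1.5 are genes not called, which were brighter on miR-NC input 1 than on miR-NC input 2.

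The deepest fall was that of RPIA (NM_144563), the isomerase that makes ribose 5-phosphate in the pentose phosphate pathway. Its intensities were 4201 and 4075 on the miR-NC arrays and 1231 and 1211 on the miR-634 arrays. This is 3.39-fold lower, a log2 change of -1.76 with a standard error of 0.04 (limma adjusted p = 0.00979). The arrays of each group lay close together. The largest falls and rises named here were chosen among genes whose groups did not overlap, so a gap between the groups is no added support.

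EIF5A2 (NM_020390), an isoform of the translation factor eIF5A, gave 411 and 439 on the miR-NC arrays and 157 and 149 on the miR-634 arrays, a log2 change of -1.47. ARPC5 (NM_001270439), a subunit of the Arp2/3 complex that branches actin filaments, gave 15293 and 14976 against 5883 and 5893, a log2 change of -1.36, and a second ARPC5 probe gave -1.25. NASP (NM_002482), a histone chaperone, gave 727 and 703 against 314 and 261, a log2 change of -1.32. In all 3 genes the lower miR-NC array was more than 2-fold above the higher miR-634 array.

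DGUOK (NM_080916), which phosphorylates deoxyguanosine for mitochondrial DNA synthesis, gave 4177 and 4305 against 1701 and 1784, a log2 change of -1.28. AGK (NM_018238), a lipid kinase of mitochondria, gave 362 and 367 against 159 and 161, a log2 change of -1.19 from a probe inside the discordant area. BLOC1S2 (NM_001001342), a subunit of the BLOC-1 complex of lysosome-related organelles, gave 4307 and 4479 against 1951 and 1961, a log2 change of -1.17. The replicate arrays of these 3 genes differed by little.

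NAA50 (NM_025146), an N-terminal acetyltransferase, shows a limit of single probes. Its brightest probe gave 34935 and 31609 on the miR-NC arrays and 14712 and 14881 on the miR-634 arrays, a log2 change of -1.17, whereas its dimmer probe changed by -0.07. Likewise NEURL1B (NM_001142651), a ubiquitin ligase, changed by -1.24 with 1 probe and by 0.07 with the other. The rest of the 15 largest falls were EFCAB14, TRIM58, MTPN, HSDL1 (inside the area), ANKRD40 and RWDD4, with log2 changes from -1.25 to -1.16 and 1 passing probe each.

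The largest rise was that of CDKN1A (NM_078467), which encodes the CDK inhibitor p21. Its intensities were 34.3 and 53.1 on the miR-NC arrays and 98.7 and 111 on the miR-634 arrays, a 2.45-fold rise (log2 1.29, standard error 0.23, limma adjusted p = 0.0346). Its probe was dim, and its miR-NC arrays differed from each other more than those of the other genes in this group. The same gene is thus the least precise of the large rises.

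IL11 (NM_000641), a cytokine of the IL-6 family, gave 186 and 193 against 455 and 418, a 2.30-fold rise (log2 1.20). PIP4K2A (NM_005028), a lipid kinase that makes phosphatidylinositol 4,5-bisphosphate, gave 400 and 396 against 890 and 901, a log2 change of 1.17. FNIP2 (NM_020840), a partner of folliculin in nutrient sensing, gave 178 and 190 against 393 and 366, a log2 change of 1.04. For these genes, the lower miR-634 array was well above the higher miR-NC array.

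DNMT3B (NM_175850), a DNA methyltransferase, gave 355 and 349 against 740 and 732, a log2 change of 1.06. CALU (NM_001219), a calcium-binding protein of the secretory pathway, gave 1504 and 1510 against 2860 and 2891, a log2 change of 0.93. PRSS22 (NM_022119), a serine protease, gave 2245 and 2918 against 5258 and 5568, a log2 change of 1.08. The only passing probes of DNMT3B, CALU and PRSS22 lie inside the area, where the miR-NC arrays agreed for the first pair and differed for PRSS22. The other genes among the 15 largest rises were TRIML2, the snoRNAs SNORA63 and SNORA74B, SEMA5B, SLC45A4, SLC35G2, the guidance cue NTN1 and the receptor tyrosine kinase MERTK, with log2 changes between 0.91 and 1.1.

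**Figure D2:**
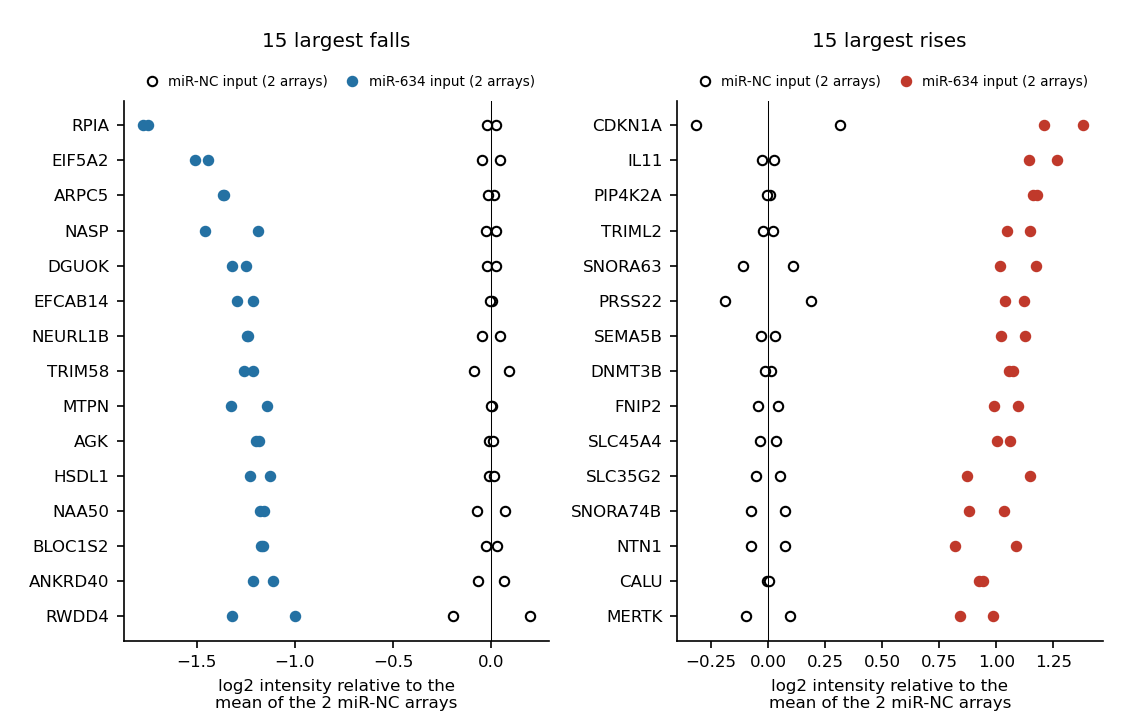
For the 15 largest falls (left) and rises (right), each point is 1 input array, drawn as log2 intensity relative to the mean of the 2 miR-NC arrays of that gene. RPIA lies near -1.76 on both miR-634 arrays, and the 2 miR-NC arrays of CDKN1A, PRSS22 and RWDD4 lie farther apart than those of most other genes.

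The study names XIAP, BIRC5, APIP, OPA1, TFAM, NFE2L2, LAMP2 and SLC1A5 as targets of miR-634. Of these 8 genes, 7 were measured in the input, of which 5 fell and 0 rose. They were chosen by the study as targets, partly on these arrays, so their direction is not independent evidence. Their median log2 change was -0.39, against -0.0043 over all genes.

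APIP (NM_015957), an enzyme of methionine salvage that also binds APAF1, fell most, with 762 and 784 on the miR-NC arrays and 370 and 344 on the miR-634 arrays (log2 -1.12, standard error 0.06, limma adjusted p = 0.00979). OPA1 (NM_130837), the GTPase that fuses inner mitochondrial membranes, gave 1053 and 1034 against 614 and 641 (log2 -0.73). Its dimmer probe, for NM_130831, gave 233 and 209 against 188 and 212, where the groups overlap (log2 -0.14).

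TFAM, which packages and transcribes mitochondrial DNA, had lower values after miR-634 with both of its probes, of which the brighter was tested. The brighter one (NM_001270782) gave 9439 and 9100 against 6077 and 6083 (log2 -0.61), and the dimmer one (NM_003201) gave 172 and 182 against 91.5 and 82.3 (log2 -1.03). SLC1A5 (NM_005628), the glutamine transporter ASCT2, gave 2639 and 2553 against 2010 and 1951 (log2 -0.39, adjusted p = 0.0179). SLC1A5 was thus 1.31-fold lower in the input. Its groups did not overlap, as was so in the lower direction for 34.2% of all genes.

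BIRC5 (NM_001012271), which encodes survivin, gave 23740 and 22454 against 18027 and 18401 (log2 -0.34, adjusted p = 0.0251), from a probe inside the area. LAMP2, a lysosomal membrane protein, and XIAP, an inhibitor of caspases, did not pass the threshold. The brightest LAMP2 probe (NM_001122606) gave 7770 and 7882 against 6941 and 6634 (log2 -0.21, adjusted p = 0.0538), and its other probes gave -0.59 and -0.04. XIAP (NM_001167) gave 1610 and 1599 against 1435 and 1433 (log2 -0.16, adjusted p = 0.0636), with -0.20 from its dimmer probe. NFE2L2, the gene of the transcription factor NRF2, had no probe well above background on all 4 arrays.

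**Figure D3:**
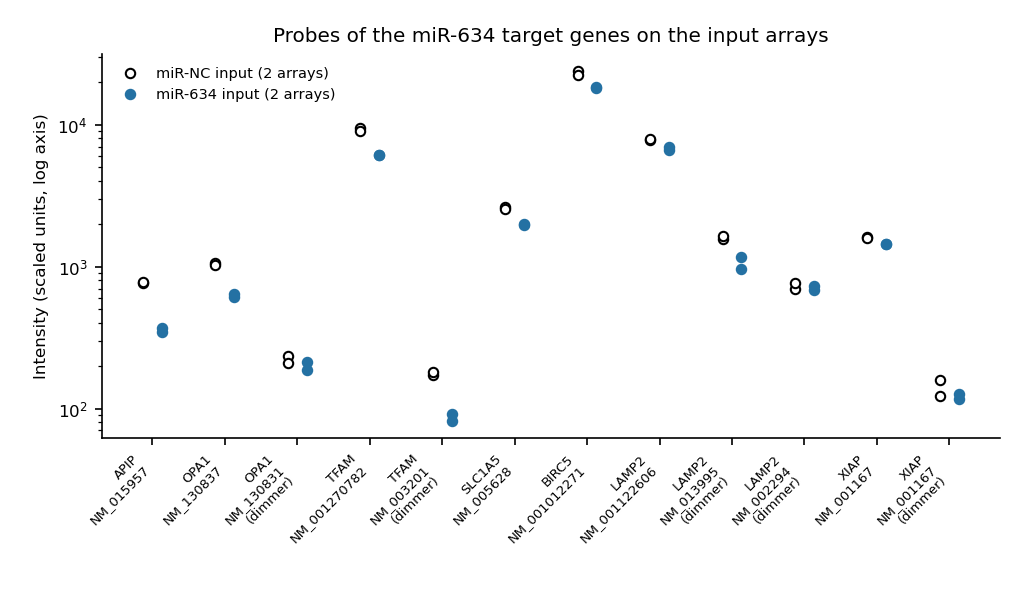
Each pair of columns is 1 probe of a target gene named by the study, with the 2 miR-NC input arrays (open) and the 2 miR-634 input arrays (filled) on a log axis of scaled intensity. APIP and both TFAM probes separate clearly between the groups, whereas the dimmer probes of OPA1, LAMP2 (NM_002294) and XIAP overlap.

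The larger lists that the study made were also counted. Of the genes that the study's proteomic experiment found lower at the protein level in miR-634 cells, 387 were measured in the input. Of these, 83 (21.4%) were lower and 27 (6.98%) higher, against 10.4% and 10.1% of all genes. The study put any decrease in protein on this list, without a size cutoff, whereas the input calls rest on an adjusted p. Of the 110 genes that the study kept as direct targets, because they were also enriched in the RIP, 109 were measured, of which 54 (49.5%) were lower and 1 higher, with a median log2 change of -0.25. This list was chosen on enrichment of RIP over input in these arrays, so a lower input helped a gene to enter it, and its share is a description only. The remaining 278 genes of the proteomic list gave 29 lower (10.4%) and 26 higher (9.35%), shares close to those of all genes, with a median of -0.01. Taking out the target list favored the removal of genes with a lower input, so these shares are a description only as well. ARPC5, AGK, APIP and RRP1B (NM_015056), a nucleolar protein of ribosome assembly with a log2 change of -1.11, were the largest falls in the target list.

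The AGO2 RIP gave another readout of the same genes, on arrays that the comparison above did not use. Of the 1427 genes lower in the input, 1203 were also well above background on the 4 RIP arrays, and their median log2 change from miR-NC RIP to miR-634 RIP was 0.50. The median over all 10914 genes so measured was -0.18. Among these 1203 genes, 34.7% were more than 2-fold higher in the miR-634 RIP, against 11.4% of all genes. The share was 52.6% among the 38 measured genes that fell by more than 2-fold in the input, with a median RIP change of 1.09. The 1237 measured genes that rose in the input had a median RIP change of -0.19, and 4.04% of them were more than 2-fold higher in the RIP. Seen from the RIP, 33.5% of the 1245 genes that were more than 2-fold higher there were lower in the input and 4.02% were higher. Of the 858 genes that were more than 2-fold lower in the RIP (7.86% of those measured there), 103 were lower and 100 higher in the input. No test was made of these shares.

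Single genes among the large falls differed in this readout. BLOC1S2 had a RIP change of 2.63, DGUOK of 2.56, ARPC5 of 2.22 and APIP of 2.04 on the log2 scale. RPIA, the deepest fall in the input, had a RIP change of 0.95, and EIF5A2 had one of -0.15. Among the large rises, DNMT3B had a RIP change of -1.74 and PIP4K2A of -1.28, while IL11 had one of 1.12 and was thus higher in both the input and the RIP.

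**Figure D4:**
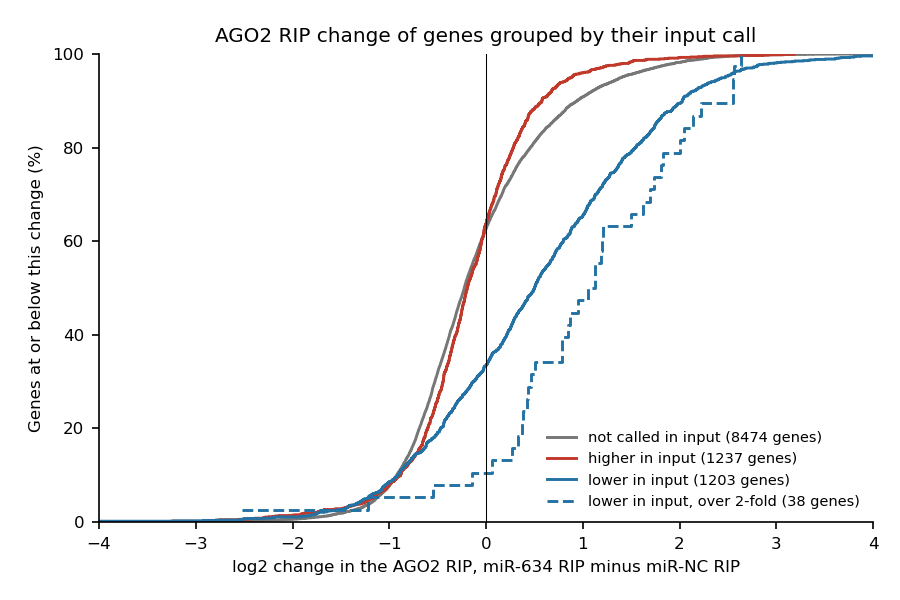
Cumulative share of genes (vertical, in %) by their log2 change in the AGO2 RIP (horizontal), drawn separately for genes not called, higher, lower and more than 2-fold lower in the input. The curve of the 1203 lower genes lies to the right of the others, with a median of 0.50, and that of the 38 genes more than 2-fold lower lies farther right, at 1.09.

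Genes of the miRNA machinery itself changed in both directions. Of 17 measured genes of miRNA processing and RISC, 5 (29.4%) rose and 2 (11.8%) fell, against 10.1% and 10.4% of all genes. The median log2 change was 0.01 (-0.21 on spike-in scaling). Without the discordant area 6 rose and 1 fell of 14, with a median of 0.10. AGO2 (NM_012154), the slicing Argonaute that the RIP captured, rose with 2315 and 2265 against 3123 and 3151 (log2 0.45, limma adjusted p = 0.0137). TNRC6A (NM_014494), a scaffold that joins Argonaute to the deadenylases, rose from 378.2 and 391.9 to 668.2 and 632.5 (log2 0.76). AGO3, TNRC6C and DGCR8 rose less, between 0.22 and 0.35. TNRC6B, a paralog of TNRC6A with a probe inside the area, fell from 447 and 409 to 306 and 271 (log2 -0.57), and the helicase DDX6 fell by 0.43.

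Of 31 measured genes of mRNA deadenylation and decay, the machinery that acts after RISC has bound, 5 rose and 5 fell. These are 16.1% each, against 10.1% and 10.4% of all genes. The decapping enzyme DCP2 fell from 877 and 886 to 474 and 433 (log2 -0.96, probe inside the area), and the deadenylase subunits CNOT8 and PAN3 and the exonuclease XRN1 fell by 0.65, 0.56 and 0.58 on the log2 scale. CNOT3, DCP1A, BTG2 and the AU-rich element binding proteins ZFP36 and ZFP36L2 rose, by 0.23 to 0.52. Of 16 measured genes known as let-7 targets, 4 (25%) fell and 2 (12.5%) rose, with a list median of 0.02 (-0.21 on spike-in scaling). The falls were led by IGF2BP3 (2886 and 2861 against 1550 and 1500, log2 -0.91), CDC25A and CDC34.

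Lists of pathway genes were then counted. The rises and falls of every list below are to be read beside 10.1% and 10.4% of all genes. On spike-in scaling, where 14 genes were called higher in all, CDKN1A and IL11 were the only members of a list among them, so the rises below are rises relative to the bulk of the genes. Of the pathway lists, that of the endoplasmic reticulum held the most rises. Of 21 measured genes of the unfolded protein response and of ER chaperones, which fold secreted proteins and dispose of misfolded ones, 12 (57.1%) rose and 3 fell, against 10.1% and 10.4% of all genes, with a median log2 change of 0.28 (0.05 on spike-in scaling). SEL1L, of the ER-associated degradation complex, rose from 924 and 1027 to 1522 and 1467 (log2 0.62), and its other probes gave 0.65 and 0.42. The co-chaperone DNAJC3 rose from 1824 and 1680 to 2504 and 2584 (log2 0.54), and HSPA5, the main ER chaperone BiP, rose by 0.37. HERPUD1, SYVN1, SDF2L1, DNAJB9, CRELD2, PDIA4, ATF6, XBP1 and DNAJB11 rose by 0.21 to 0.43. Against them, the chaperone HYOU1 fell from 399 and 376 to 262 and 235 (log2 -0.64), the secreted factor MANF from 39920 and 39863 to 27000 and 26440 (log2 -0.58), and CALR by 0.45.

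Of 25 measured genes of ATF4 and the integrated stress response, which slows translation under stress, 5 (20%) rose and 1 (4%) fell. All genes gave 10.1% and 10.4%. The list median was 0.07 (-0.16 on spike-in scaling). PPP1R15A, which brings a phosphatase to eIF2α, rose from 354 and 361 to 644 and 638 (log2 0.84), the hormone STC2 by 0.72, CHAC1 by 0.66, DDIT3 (CHOP) by 0.50 and ASNS by 0.26, while PSAT1 fell by 0.27. ATF4 itself changed by 0.05, ATF3 by -0.13 and TRIB3 by -0.06, none of which passed the test. The aminoacyl-tRNA synthetases, which charge tRNAs and include known ATF4 targets, gave 8 rises and 2 falls of 34. The rises were led by GARS1 (1638 and 1683 against 2271 and 2199, log2 0.43), which serves both cytosol and mitochondria, and AARS1 (log2 0.41), and the falls were the mitochondrial enzymes EARS2 (probe inside the area) and FARS2. Without the discordant area 9 rose and 1 fell of 30.

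The EGFR family is of interest because A431 cells depend on it, and because the study combined miR-634 with EGFR inhibitors. Of 9 measured members, the receptors, ligands and the inhibitor ERRFI1, 5 (55.6%) rose and 0 fell, against 10.1% and 10.4% of all genes. The list median was 0.33 (0.10 on spike-in scaling). The ligand HBEGF rose from 746 and 727 to 1165 and 1075 (log2 0.60, limma adjusted p = 0.0144), and the receptor ERBB3 from 950 and 882 to 1383 and 1362 (log2 0.58, probe inside the area; 0.36 from a second probe). The ligands AREG and EREG rose by 0.35 and 0.34, and EGFR by 0.33. ERBB4, EGF and EPGN were not well above background on all 4 arrays.

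Of 27 immediate early and ERK feedback genes, which respond to such receptors, 4 (14.8%) rose and 1 (3.7%) fell, against 10.1% and 10.4% of all genes. The list median was 0.11 (-0.12 on spike-in scaling), and without the discordant area 6 rose and 1 fell of 24. SPRY4 rose by 0.59 with its brightest probe and changed by 0.03 with the other, FOSL1 rose by 0.48, IER3 by 0.44 and FOSL2 by 0.32, while FOS fell by 0.38. Of 14 measured YAP and TEAD genes, targets and members of the Hippo pathway, 7 rose and 0 fell, with a median of 0.32 (0.10 on spike-in scaling), led by CCN1 (15700 and 15797 against 22032 and 20642, log2 0.44), TEAD3 (probe inside the area), AMOTL2 and AXL. Without the area, 10 of these genes were measured, of which 4 rose, and their median was 0.04, so that the median of this list rests on the probes inside it.

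Of 19 measured NF-kB target and keratinocyte cytokine genes, 8 (42.1%) rose and 1 (5.26%) fell, against 10.1% and 10.4% of all genes. The list median was 0.19 (-0.03 on spike-in scaling). Beside IL11, the growth factor CSF2 rose from 265 and 218 to 393 and 375 (log2 0.68), TNFAIP3, an inhibitor of NF-kB signalling, by 0.52, LIF by 0.41, IL1A by 0.40, CXCL1 by 0.37, RELB by 0.30 and CXCL2 by 0.28. BIRC3 fell from 313 and 310 to 197 and 226 (log2 -0.56). CXCL8, CCL20, TNF and 4 more members were not well above background on all 4 arrays.

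Interferon-induced genes moved the other way. The 27 measured members are switched on by interferons and by foreign RNA. Of them, 0 rose and 8 (29.6%) fell, against 10.1% and 10.4% of all genes, with a median of -0.18. Without the discordant area 0 rose and 6 fell of 24. IFI44L fell from 71.2 and 59.7 to 25.9 and 37.3 (log2 -1.07, standard error 0.21, adjusted p = 0.0405) and was dim, whereas OASL gave 997 and 1004 against 685 and 675 (log2 -0.56). RSAD2 (probe inside the area), IFIT2, IRF9, OAS2, IFI44 and ISG15 fell by 0.60, 0.50, 0.46, 0.42, 0.30 and 0.22. MX1 changed by 0.17 and did not pass the test.

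Genes of the TGF-beta pathway and of the mesenchymal transition gave 6 falls and 1 rise among 18 measured. These are 33.3% and 5.56%, against 10.4% and 10.1% of all genes. The falls included genes of opposite roles: the epithelial cadherin CDH1 fell from 13773 and 13776 to 6938 and 6738 (log2 -1.01, standard error 0.04, limma adjusted p = 0.00979), and the mesenchymal filament VIM from 906 and 781 to 495 and 458 (log2 -0.82). The signal carriers SMAD2 (125 and 124 against 62.4 and 67.1, log2 -0.95) and SMAD4 and the receptor TGFBR1 fell as well, as did the matrix protein THBS1, and the ligand TGFB1 rose by 0.22. CDH1 was the only squamous marker that fell, while EGFR, KRT6A, TP63, DSP and DSG3 rose, by 0.26 to 0.40, and the other 4 did not pass the test.

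Of 23 measured NRF2 target and antioxidant genes, 9 (39.1%) fell and 1 (4.35%) rose, against 10.4% and 10.1% of all genes. The list median was -0.01. The median ranged from -0.06 to 0.04 under other scalings without spike-ins and was -0.24 on spike-in scaling, and without the discordant area 7 of 20 fell and 0 rose, with a median of -0.12. TXNRD1, the cytosolic thioredoxin reductase, fell from 269 and 263 to 126 and 128 (log2 -1.06), AKR1C1 from 1871 and 1849 to 1201 and 1231 (log2 -0.61), and AKR1B10 by 0.64. AKR1C3, SRXN1, NQO1, GPX4, CAT and FTL fell by 0.21 to 0.44. HMOX1, which degrades heme, rose from 1536 and 1469 to 2239 and 2289 (log2 0.59, probe inside the area), and GCLM changed by -0.01 without passing the test. AKR1C1 and AKR1C3 belong to a family of near-identical sequence, so a probe of one may take up RNA of another.

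The mitochondrial lists differed in their share of falls. Of 23 genes of mitochondrial fusion, fission and DNA maintenance, 7 (30.4%) fell and 1 rose, with a median of -0.11 (-0.33 on spike-in scaling). Beside OPA1 and TFAM, the outer membrane fusion factor MFN1 fell from 729 and 726 to 467 and 450 (log2 -0.67), MFN2 by 0.44, the fission GTPase DNM1L by 0.43, its adaptor MIEF1 by 0.45 and the protease YME1L1 by 0.25, whereas the transcription factor GABPA rose by 0.51. Factors of fusion and of fission thus fell side by side. Of 77 nuclear-encoded subunits of oxidative phosphorylation, 10 (13%) fell, close to the 10.4% of all genes, and 0 rose, with a median of -0.13 (-0.10 to -0.08 under other scalings without spike-ins and -0.36 on spike-in scaling). ATP5F1B, the catalytic ATP synthase subunit, fell from 19539 and 19567 to 13766 and 13668 (log2 -0.51), and UQCRH of complex III by 0.54. Of 77 mitochondrial ribosomal proteins, 1 (1.3%) fell (MRPS33, log2 -0.32) and 0 rose. No probe was matched to a mitochondrially encoded gene.

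Cytosolic ribosomal protein genes shifted little. Of 77 measured, 3 fell and 0 rose, with a median of -0.09 (-0.06 to -0.01 under other scalings without spike-ins and -0.31 on spike-in scaling), and 74 had a log2 change below 0, which 50.9% of all genes had. RPL41 fell most, from 240010 and 234790 to 117920 and 125260 (log2 -0.97), followed by RPS16 (log2 -0.42) and RPL7 (log2 -0.34). Of 50 translation initiation factors, 5 (10%) fell and 3 (6%) rose, no more than the 10.4% and 10.1% of all genes. Beside EIF5A2, the cap-binding protein EIF4E fell from 4525 and 4598 to 2983 and 3061 (log2 -0.59), with -0.72 and -0.33 from its other probes, and EIF3J, EIF2D and EIF4A2 fell by 0.55, 0.53 and 0.37, while EIF3B, EIF5B and EIF4G1 rose by 0.44, 0.37 and 0.36.

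Nutrient genes changed gene by gene. Of 12 genes of glutamine uptake and use, 3 fell and 0 rose, among them SLC1A5 and the mitochondrial glutamate carrier SLC25A22 (6347 and 6231 against 4194 and 4298, log2 -0.57). Of 7 pentose phosphate genes, RPIA and PGD (3200 and 3060 against 2260 and 2372, log2 -0.43) fell and the rest did not pass the test.

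Of 25 cholesterol genes, 5 rose and 2 fell. The synthesis enzymes DHCR7, MVD and LSS rose by 0.34, 0.24 and 0.22, while INSIG1, a regulator of the synthesis, fell by 0.42. Of 13 fatty acid synthesis genes, FASN fell by 0.42 and ACSS2 rose by 0.20. Of 21 genes of glucose transport and glycolysis, HK2 and PFKP rose by 0.45 and 0.33, and the transporter SLC2A1 fell by 0.33. Without the discordant area 4 rose and 1 fell of 17. Of 17 hypoxia-inducible genes, VEGFA (5842 and 5551 against 10232 and 9584, log2 0.80), ADM and BNIP3 rose, and ANKRD37 and SLC2A1 fell.

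Lists of cell death and of the cell cycle differed in their shares of calls. Of 22 measured p53 target genes, 7 (31.8%) rose and 2 (9.09%) fell, against 10.1% and 10.4% of all genes. The list median was 0.14 (-0.08 on spike-in scaling). Beside CDKN1A, the kinase PLK3 (probe inside the area) rose by 0.60, the secreted factor GDF15 from 36579 and 36778 to 53668 and 55818 (log2 0.58), BTG2 by 0.52, GADD45A by 0.36, BAX by 0.30 and PMAIP1 by 0.25. DDB2 and FAS fell by 0.35 and 0.19, and MDM2, the p53 ubiquitin ligase and itself a target, changed by 0.0022 (adjusted p = 0.989). Of 38 genes of apoptosis, 8 (21.1%) fell and 5 (13.2%) rose, but without the discordant area 6 fell and 6 rose of 35. APIP and the inhibitors of apoptosis BIRC2, BIRC3 and BIRC5 fell, as did the pro-apoptotic genes HRK, BOK, APAF1 and FAS. BAX, PMAIP1, CASP10 and HTRA2, which promote cell death, rose together with MCL1, which prevents it.

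Of 28 genes of G1 control, 7 (25%) rose and 4 (14.3%) fell, against 10.1% and 10.4% of all genes. The list median was 0.11 (-0.11 on spike-in scaling). The CDK inhibitors CDKN1A and CDKN1B (log2 0.48) rose and CDKN1C fell by 0.50. The phosphatase CDC25A, which activates CDK2, fell from 815 and 777 to 495 and 501 (log2 -0.68), WEE1 fell by 0.38, and CCND3 rose from 2081 and 1973 to 3092 and 3091 (log2 0.61, probe inside the area). Of 33 mitotic genes, 3 (9.09%) rose and 4 (12.1%) fell, shares close to those of all genes. Without the discordant area 6 rose and 2 fell of 27. MKI67, the Ki-67 proliferation marker, rose by 0.64, and its other probes gave 0.42 and 0.33, and INCENP rose by 0.49, while BUB3, BIRC5, CDC25C and CDCA8 fell by 0.21 to 0.36.

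DNA replication genes changed little: of 38 measured, 3 fell and 0 rose, among them GINS1 (6354 and 6493 against 4730 and 4644, log2 -0.45) and PCNA. Of 63 replication-dependent histone genes, 3 fell and 1 rose, but 57 had a log2 change below 0, with a median of -0.14. The histone genes resemble each other in sequence, so their probes may share RNA.

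Autophagy genes were called no more often than all genes. Of 32 measured, 9.38% rose and 3.12% fell, against 10.1% and 10.4% of all genes. ATG2A, SQSTM1 (6898 and 6972 against 8778 and 9045, log2 0.36) and MAP1LC3B (log2 0.22) rose and ATG2B fell. Without the discordant area 5 rose and 1 fell of 31. SQSTM1 encodes p62, a receptor that autophagy consumes, and MAP1LC3B encodes LC3B. Of 31 lysosomal genes, 7 (22.6%) rose and 3 (9.68%) fell. The cathepsin CTSZ rose from 6333 and 7060 to 10733 and 10355 (log2 0.66) and the sialidase NEU1 by 0.52, while CTSO, the membrane protein SCARB2 and IDS fell by 0.71, 0.54 and 0.41. Of 37 proteasome subunits, 1 fell (PSMD10, log2 -0.40) and 0 rose, and of 14 heat shock genes HSP90AA1 and BAG3 rose by 0.25 and 0.27 and DNAJB4 fell by 0.48.

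In the epithelial program, the antimicrobial S100 genes stood out among 19 epidermal differentiation genes, of which 5 fell and 3 rose. S100A8 fell from 681 and 662 to 408 and 348 (log2 -0.83), S100A7 from 265 and 240 to 158 and 131 (log2 -0.81) and S100A9 by 0.73. The transcription factors GRHL3 (358 and 326 against 558 and 602, log2 0.76) and OVOL1 (2825 and 2707 against 4673 and 4636, log2 0.75) rose. Of 29 measured keratins, 7 rose and 2 fell. The largest rises were those of KRT9 (269 and 270.5 against 381 and 374, log2 0.48) and KRT75 (log2 0.41). KRT6A, KRT6B and KRT6C, which are near-identical, and KRT16 rose by 0.26 to 0.29, and KRT15 fell from 86090 and 84804 to 60132 and 62355 (log2 -0.48) and KRT32 by 0.33 on the log2 scale. Of 21 integrin, laminin and hemidesmosome genes, ITGB6, LAMC1, ITGAV and ITGB1 fell by 0.74, 0.50, 0.34 and 0.22, and ITGA5 and PLEC rose by 0.49 and 0.47. Without the discordant area 2 of 17 fell and 3 rose.

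**Figure D5:**
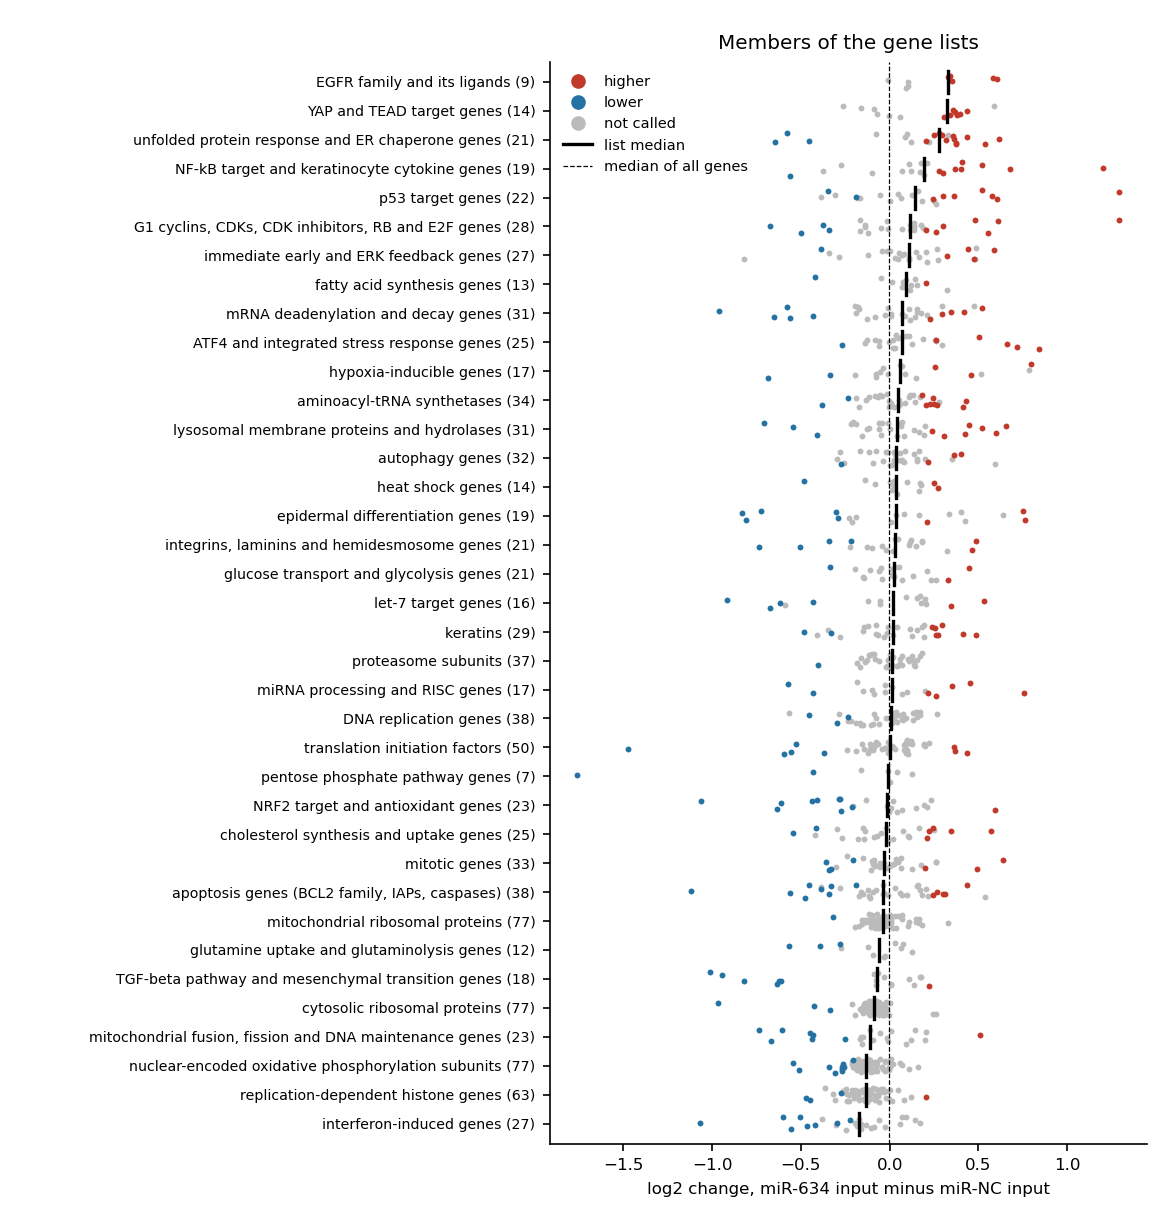
Each point is a gene of the list named on the left (number of measured members in parentheses), placed by its log2 change in total RNA, with lists ordered by their median (black bar) and the median of all genes as a dashed line. The EGFR, YAP and TEAD, and unfolded protein response lists lie at the top with medians of 0.33, 0.32 and 0.28, and the interferon list lies at the bottom at -0.18. On spike-in scaling these 4 medians were 0.10, 0.10, 0.05 and -0.40, and the medians of the NF-kB and p53 lists turned to -0.03 and -0.08.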

How the data were processed

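A431 cells transfected with miR-NC or miR-634 were measured on Agilent 8 × 60K one-color arrays, with 2 input arrays per group. Per spot, the authors deposited an intensity as processed by Agilent Feature Extraction (12.0.1.1 in the file headers, 9.1 in the labels), that is, background-subtracted within the array and not normalized between arrays. The deposited table of processed log2 values followed log2 intensity minus the 75th percentile over all probes, then centered on each probe's own median across the 8 arrays (r = 1 on each array, column medians from -0.44 to 0.87), and served as an alternative. Its scale, centering and direction were found only through this match.

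Control spots and outlier spots (57 to 109 per input array) were left out, and the spots of a probe were averaged. No probe was saturated. From the log2 intensity of every array, its 75th percentile was subtracted, taken over the 23573 probes well above background on the 4 input arrays. Printed intensities are these values on a linear scale. A RefSeq accession was given for 33080 probes, and 31104 of them found a symbol in the RefSeq gene table (GRCh38.p14, versions removed), and the brightest passing probe stood for a gene. The files name hg19, so no coordinates of genes are given. RIP changes were computed for genes whose probe was also well above background on the 4 RIP arrays.

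Groups were compared with limma 3.58.1 (R 4.3.3): lmFit with a mean for each group of input arrays, then eBayes, with Benjamini-Hochberg adjustment over 13662 genes and a threshold of 0.05. The number of arrays limits the precision. In simulated data for this comparison with 13662 genes, of which 200 changed, limma recovered 75.5% of changes of 1 and 26% of changes of 0.5 on the log2 scale, and 5.03% and 1.89% of its calls were unchanged genes. Each simulation held only rises of 1 size, in far fewer genes than the 2813 called in the data. These rates therefore may not hold for the data. Named genes are the 15 largest rises and falls among genes with an adjusted p under 0.05 and no overlap, the study's target genes, up to 4 called members with the largest change in each list (with members not called where fewer than 3 were) and the 5 largest bounds in each direction. Further members of lists, and genes in the closing section, were chosen for naming once their values had been seen. The members and lists were chosen with earlier results of these data known.

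Alternatives were the 75th percentile over all probes, the median, quantile normalization, 7 spike-in probes, normexp with an offset of 50, the authors' values, no filter, a filter on all 8 arrays, the mean of a gene's probes, a fit on 8 arrays, an intensity trend, the methods' t-test, a replicate block and each array left out. All arrays were on 1 slide in 1 scan, so no slide block was fitted. Some members of the lists are counted but not reported by name here. The search for miR-634 sites was not run, and neither were proteomic, PCR, reporter or animal data analyzed. Python 3.11.15 with pandas 2.3.3 and matplotlib 3.10.9 drew the figures and wrote the summaries.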

Additional observations from a re-analysis of the deposited data

Results flagged for a closer look

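Some probes were well above background on both input arrays of 1 group and on neither of the other, so they entered no test, and only a bound on their change can be given. The bound sets the mean of the brighter group against, on each dim array, the higher of the probe's own signal and the lowest signal of any probe well above background. There were 255 such probes in miR-634 cells, 15 of them in the discordant area, and 127 in miR-NC cells, 27 of them in that area.

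Among probes with a symbol, the largest bounds in miR-634 cells were at least 2.98-fold higher for EML5 (58.3 and 56.9 on the miR-634 arrays), 2.83-fold for ZNF354C, 2.74-fold for TMEM198, 2.51-fold for CD274 and 2.31-fold for ARFGEF3. ZNF354C gave 94.2 and 31.7 on the miR-634 arrays, so these were far apart. A second probe of CD274, the gene of the checkpoint ligand PD-L1, was measured on all arrays with 112 and 94.2 against 158 and 184 (log2 0.73, limma adjusted p = 0.031). This is less than the bound of the first CD274 probe, 1.33 on the log2 scale. A second ARFGEF3 probe changed by -0.06 and did not pass the test (limma adjusted p = 0.598).

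In the other direction the largest bounds were at least 9.01-fold lower for ZNF404, 5.73-fold for OR1N1, 3.70-fold for TMEM212-AS1, 3.44-fold for PPP1R1C and 3.20-fold for ITGB1BP2. All 5 probes lie in the discordant area. ZNF404 gave 888 on miR-NC input 1 and 30.5 on miR-NC input 2, and the other 4 were also brighter on miR-NC input 1. Outside the area, the largest bounds were at least 2.56-fold lower for LINC00921, 2.40-fold for LINC01372 and 2.07-fold for LINC01132, of which LINC01132 alone had miR-NC arrays that were alike (36.1 and 37.7).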

How the results depend on the processing

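All 2813 called genes kept their direction under the 75th percentile over all probes, the median, quantile normalization and the authors' values, and 96.5% did on spike-in scaling. Under the scalings other than spike-ins the median gene changed by only 0.0242 to 0.0448. Shifts this small could hardly turn a called gene, so the kept directions are no added support. An intensity trend, the methods' t-test and the replicate block use the same group means, so they could not change a direction. Against 1386 higher and 1427 lower genes (11 and 48 over 2-fold), spike-in scaling gave 14 and 506 (1 and 185), an intensity trend 2291 and 2222, the methods' t-test after Benjamini-Hochberg 20 and 20 (1 and 2; 2087 and 2038 at an unadjusted p under 0.05), and no filter 0 and 0 by limma (0 and 0 over 2-fold; 2380 and 2456 unadjusted). The lower genes were 852 under the percentile over all probes and 855 with the authors' values, with 1378 and 1360 higher. Normexp with quantile normalization gave 4 and 18 over 2-fold. With 1 array left out, higher genes ranged from 0 to 0 and lower genes from 0 to 9, with 0 to 0 and 0 to 9 over 2-fold; the 9 came without miR-NC input 2. The replicate block gave 275 and 483, but arrays of the same number deviated with a correlation of -0.04, so they share only a number. On spike-in scaling ACSS2 (-0.0229), H3C1 (-0.0204), MAP1LC3B (-0.00768) and PSMC5 (-0.0417) turned negative. Leaving out the area where the miR-NC arrays disagreed, chosen after seeing the data, kept all 4 counts within 1.5 times. Causes were not tested.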

Other observations

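RNA classes differed in their balance of calls. Of 937 long noncoding RNAs measured in the input, 94 (10.0%) were lower and 35 (3.74%) higher, with a median log2 change of -0.07, against 1287 lower and 1305 higher of 12233 protein-coding genes with a median of 0.0003. Of 161 small nucleolar RNAs, 17 were lower and 19 higher.

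Of 3358 genes with more than 1 passing probe, 21 had a probe that differed by more than 1 on the log2 scale from the brightest. HMGA2, a chromatin protein and a known let-7 target, was among them. Its brightest probe (NM_001300918) gave 1960 and 2377 on the miR-NC arrays and 2088 and 2064 on the miR-634 arrays (log2 -0.06), whereas its probe for NM_003483 gave 832 and 847 against 2938 and 3015 (log2 1.83). This probe was not tested as the gene's value. NUDT21, a factor of poly(A) site choice, changed by -0.09 with its brightest probe and by -1.12 with another for the same accession, HOXA10 by -0.12 and -1.28, GATAD2A by 0.23 and 1.35, and LRPAP1 by 0.29 and -0.85. Of the genes called higher, 350 had another passing probe, and all of their probes had a change above 0 for 284. Of those called lower, 328 had another one, and all had a change below 0 for 261. Which part of each transcript a probe reads was not examined.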
